A study of Petromyzon marinus and Lampetra planeri with 28 samples.

Results

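The 200 longest spliced loci expressed in the sea lamprey dorsal neural tube (DNT) were described. The authors assembled the transcriptome from DNT RNA-seq together with RNA-seq of whole heads and whole embryos. A locus is a group of overlapping transcripts assembled from RNA-seq reads, and a spliced locus here had a strand and at least 1 transcript of 2 or more exons. Of 72171 loci in the transcriptome, 24907 were spliced, and 17135 of those had a mean of at least 10 normalised counts over the 8 DNT libraries (the eligible loci). The 200 with the largest span, measured from the lowest exon start to the highest exon end, were taken as members, which left 16935 other eligible loci. The members were thus chosen by span and mean level, which are given only as a description. The shortest member, XLOC_051683, spanned 246982 bases and the longest locus outside, XLOC_039628, 246833 bases. The member of lowest mean, XLOC_003471, had 10.1 normalised counts, and 71 spliced loci as long as a member had a mean under 10, the highest of them 9.84 (XLOC_036203).

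Sea lamprey (Petromyzon marinus) embryos were dissected for RNA-seq at Tahara stages T18 (3 libraries of 30 embryos each), T20 (2 libraries of 35) and T21 (3 libraries of 35), when neural crest (NC) cells are premigratory, early delaminating and late delaminating, respectively. Open chromatin was profiled by ATAC-seq in 9 sea lamprey libraries (3 each of T20 DNT, T21 DNT and T23 heads) and in 10 libraries of the brook lamprey (Lampetra planeri; 3 of T20 DNT, 4 of T21 DNT and 3 of T23 heads), each from pools of 6 to 20 individuals. The embryos carried no transgene or treatment in these libraries, and the DNT dissections also hold dorsal neural and ectodermal cells. Reads of both species were placed on the sea lamprey germline genome assembly, and peaks were deposited as 1 consensus list per species over all its stages.

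RNA-seq totals ran from 12172421 counts (T21 replicate 1) to 91015285 (T18 replicate 3), and the members held 1.60% to 1.71% of the counts in every library. Among marker loci that carry a name, the summed level of 11 neural crest loci rose from 5466 to 5984 normalised counts at T18 to between 26471 and 27456 at T21, and that of 11 epidermis loci (keratins, Tp63, GRHL2) from 17672 to 21577 to between 115211 and 135063. The 5 endoderm loci fell from between 4301 and 5419 to between 132 and 189. The other marker sums moved less, from between 11203 and 11964 to between 13399 and 14252 for 13 neural tube loci, from between 8589 and 9737 to between 11587 and 13262 for 11 mesoderm and muscle loci (3 called higher and 4 lower at T21 than at T18, and 1 of the names, MYH9, a non-muscle myosin), and from between 2689 and 2885 to between 3083 and 3475 for 5 blood and vessel loci, 3 of which (HBEGF at 2 loci and HBS1L) are no markers of blood. The sums hide differences between loci. At T21 against T18, 9 of the 13 neural tube loci were called higher and 2 lower. The calls were 9 higher and 1 lower in the neural crest set and 8 and 2 in the epidermis set. They were 3 and 2 in the blood and vessel set, and all 5 endoderm loci were lower. No marker locus was at 0 in every library. The 2 T20 libraries differed, with epidermis sums of 37968 and 82176. The part of tissue composition in the stage differences given here was not tested, and in pools of dissected tissue fewer cells of a type cannot be told apart from less RNA per cell.

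Long genes in vertebrates are long because of their introns, the stretches that are transcribed and then removed by splicing. They often encode adhesion, guidance, synaptic and cytoskeletal proteins, and their introns can hold regulatory elements and whole other genes. In an assembled transcriptome the same span can also come from a transcript model that joins distant exons, so the structure of each locus is given before its stage course.

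Members spanned a median of 280226 bases (up to 596951) but held a median of 6249 exonic bases, against 3718 in the other eligible loci, and a median of 97.9% of their span was intronic, against 73.8%. Their transcripts had up to 90 exons (median of the maximum per locus 9, others 6). Most member introns were short: of 3326 distinct introns, 76.4% were under 10 kb and the median was 2265 bases. The span came mainly from 1 intron. The longest intron had a median of 239958 bases and took a median of 80.8% of the span, and in 151 of 200 members it took over 50% (75.5%, 95% Wilson interval 69.1 to 80.9, counting error only; 29.7% of the other eligible loci). The share was 99.4% of the 544 other eligible loci with a longest intron of at least 100 kb. It was 68.5% of the 2156 with one of 20 to 100 kb. Members were taken by span, so these contrasts with all other eligible loci follow in part from the rule. In 137 members the longest intron was at least 200 kb long. Of the 187468 distinct introns of stranded loci in the whole transcriptome 371 were that long, 153 of them in members. No assembled intron exceeded 300 kb, and the longest, in the member XLOC_043187, had 299338 bases. The authors assembled transcripts at default settings, and whether those settings limit intron length was not examined. The edge at 300 kb is therefore not read as a limit of lamprey introns.

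**Figure D1:**
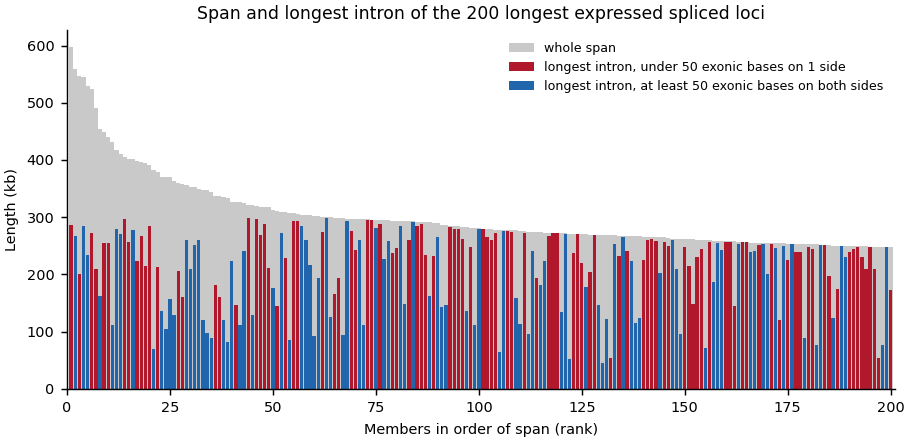
Span (grey) and longest intron (coloured) of the 200 members in kb, in order of span. Red bars mark the 103 members in which under 50 exonic bases lie on 1 side of the longest intron, and blue bars the other 97; in 151 members the coloured bar takes over 50% of the grey one.

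In many members almost no exon sequence lay beyond the longest intron. In the transcript that holds it, the exonic bases on each side were summed, and the smaller sum was under 50 bases in 103 of 200 members (51.5%, 44.6 to 58.3), a threshold chosen after the values were seen. In all 103 that side was a single terminal exon, at the 5′ end in 43 and at the 3′ end in 60. It held 8 to 12 bases in 51 members (25.5%) and as few as 5. The same was seen in other loci with long introns: the share with such a short end was 57.5% of the 544 others with a longest intron of at least 100 kb, 22.7% of 2156 with one of 20 to 100 kb, and 10.2% of 14235 with one under 20 kb. In 77 of the 103 members several transcripts were assembled and only 1 of them carried the longest intron. Without that intron, the span of the 103 members had a median of 26202 bases, against 122866 in the other 97. The share with a short end was 57.4% of the 61 members of 2 to 4 exons, 58.4% of the 77 of 5 to 15 exons and 37.1% of the 62 of 16 or more.

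**Figure D2:**
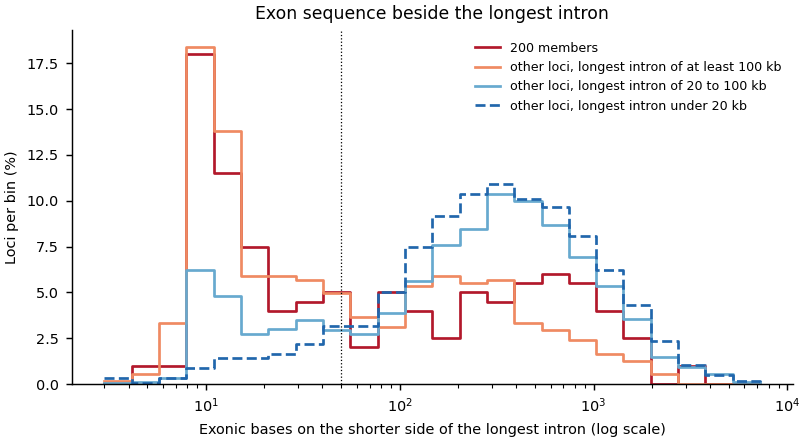
Percent of loci by the number of exonic bases on the shorter side of their longest intron (log axis), for the members and for other eligible loci split by the length of that intron; the dotted line stands at 50 bases. Members and other loci with an intron of at least 100 kb share a peak near 10 bases that loci with an intron under 20 kb lack.

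The longest member, XLOC_033152 (no name; minus strand of scaffold 34, 8282605 to 8879556), spanned 596951 bases with 14767 exonic bases in up to 7 exons, and its longest intron of 287026 bases ended in a 3′ exon of 12 bases. Among members that the study's gene lists name, the longest were C12orf10/lrrc3b/Myg1 (XLOC_006770, 545734 bases), Man1a1/MAN1A2 (XLOC_000701, 454949), CASKIN1 (XLOC_035351, 417459), Grik1/GRIK2/PDE10A (XLOC_043697, 409894) and COL22A1 (XLOC_019836, 398977). Among named members, the longest introns given here were those of ACAC/Acaca/Ddx52 (XLOC_035947, 292478 bases, next to a 3′ exon of 10 bases), Plxna1/PLXNA2/WNT-5A (XLOC_024088, 288303 bases, 19 bases), C12orf10/lrrc3b/Myg1 (284934 bases) and alphaTub84B/MNX1 (XLOC_005196, 279731 bases, 11 bases). C12orf10/lrrc3b/Myg1 had no short end, with 792 exonic bases on the shorter side. In other members the longest intron took under 50% of the span: DMD (XLOC_047408), which encodes dystrophin, spanned 348222 bases with 44 exons and a longest intron of 120151 bases, and rbfox1 (XLOC_003504), a splicing regulator known for very long introns in other vertebrates, spanned 321160 bases with 14 exons and a longest intron of 128285 bases.

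Several names on 1 locus mean that the assembled transcripts overlap several annotated genes on the same strand. Names were available for 60 members (30%), and 38 (19%, 14.2 to 25) carried 2 or more, against 3.47% of the other eligible loci. The share with 2 or more was 10.7% of the 544 other eligible loci with a longest intron of at least 100 kb. It was 9.37% of the 2156 with one of 20 to 100 kb. Only loci in the study's lists of stage changes and co-expression clusters had a name here, so that having a name depends in part on the stage course. The longest intron of 173 members wholly contained at least 1 other locus (up to 41, with a median of 7 over all 200 members), and that of 111 contained an expressed spliced one. These made up 272 pairs of a member and a nested eligible locus, with 269 nested loci of a median span of 13555 bases, 80 of them named, and 161 pairs on the same strand. Members also overlapped each other in 11 pairs, 8 of them on the same strand, so that 22 members share part of their span.

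Some nested loci differed in stage course from the member around them. At T21 against T18, both loci of a pair were called in 54 pairs, from 34 members, and the directions were opposite in 39 and the same in 15; in 27 the member was lower and the nested locus higher. A member can count in several pairs. Of the 269 nested loci 27.9% were called higher and 17.1% lower, beside 18.9% and 14.7% of all loci tested and 23.5% and 18.5% of the other eligible loci. In 36 of the 54 pairs both loci lay on the same strand, 25 of them with opposite directions. Whether opposite directions were more frequent than the shares called among the nested loci would give was not tested. MACF1/PLEC (XLOC_000089), named for the cytoskeletal linkers MACF1 and plectin, stood at 1181, 1145 and 1484 normalised counts at T18, 1024 and 289 at T20 and 496, 480 and 544 at T21. The PLEC locus inside its longest intron (XLOC_000091) went the other way, from 462, 287 and 229 at T18 to 997 and 683 at T20 and 1835, 1918 and 1966 at T21. The log2 fold changes were -1.34 for the member (adjusted p = 0.043) and 2.56 for the nested locus (adjusted p = 3.8e-05; edgeR quasi-likelihood test). Abcb1b/Fbln5 (XLOC_026311) fell by 0.81 on the log2 scale (adjusted p = 0.0036, edgeR), while a Fbln5 locus in its intron (XLOC_026312), named for the elastic fibre protein fibulin 5, rose by 2.06 (adjusted p = 0.0019).

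In all, 17 of the 60 named members shared a name with 1 or more of 26 shorter loci wholly inside their span, all on the same strand, and in 7 of the 15 such pairs with both loci called at T21 against T18 the directions were opposite (4 members). A name on a member therefore does not say which gene its counts came from. Other nested loci bore names that the member did not: ATOH1 (XLOC_014883), a proneural transcription factor, lay on the opposite strand in the 242687-base intron of Bmpr1b (XLOC_015054), with 5.00, 0 and 0 normalised counts at T18, 8.97 and 1.86 at T20 and 304, 311 and 361 at T21. SHH (XLOC_005505), the signalling ligand of floor plate and notochord, lay on the opposite strand in the intron of alphaTub84B/MNX1, with 86.2, 112 and 177 at T18 and 13.6, 7.65 and 8.51 at T21. These nested loci were picked after their values were seen.

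The stage course of the members was tested over all loci that passed a filter on low counts (25317, edgeR quasi-likelihood test, Benjamini-Hochberg adjusted p under 0.05), and 199 of the 200 members passed it; XLOC_012919, with a mean of 10.5, did not. Nothing in the sources used here says that the replicates were separate clutches, so that p-values measure the spread between these pools. At T20 against T18, 25 members were higher (12.6%) and 26 lower (13.1%), beside 10.8% and 6.51% of all loci tested and 14% and 8.32% of the other eligible loci. At T21 against T20, 18 were higher (9.05%) and 12 lower (6.03%), beside 5.4% and 4.4% of all loci and 7.04% and 5.78% of the other eligible loci. At T21 against T18, 43 were higher (21.6%) and 47 lower (23.6%), beside 18.9% and 14.7% of all loci and 23.5% and 18.5% of the other eligible loci. The median log2 fold change over the members was -0.07 at T21 against T18, with quartiles of -0.43 and 0.42, and -0.03 over all loci tested. The 3 comparisons share libraries. The libraries of the stages compared did not overlap in 101, 94 and 124 of the 200 members in the order above (all eligible loci 47.5%, 43.8% and 58.8%).

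Members of 2 to 4 exons had shares of 5% to 8.33% called in each direction. At T20 against T18, 3 of the 60 tested members of 2 to 4 exons were higher and 4 lower (5% and 6.67%, other eligible loci of that class 9.48% and 6.07%). The counts were 10 and 7 of 77 members of 5 to 15 exons (12.99% and 9.09%, others 16.7% and 8.91%) and 12 and 15 of 62 members of 16 or more (19.4% and 24.2%, others 17.3% and 12.6%). At T21 against T20 they were 3 and 3 of 60 (5% each, others 4.94% and 4.27%), 8 and 5 of 77 (10.4% and 6.49%, others 7.52% and 7.1%) and 7 and 4 of 62 (11.3% and 6.45%, others 11.2% and 5.65%). At T21 against T18, 4 of 60 tested members of 2 to 4 exons were higher and 5 lower (6.67% and 8.33%, other eligible loci of that class 16.7% and 13.1%), against 23 and 25 of 77 members of 5 to 15 exons (29.9% and 32.5%, others 27% and 21%) and 16 and 17 of 62 members of 16 or more (25.8% and 27.4%, others 30.9% and 25%). The median level was 50.7 normalised counts in the members of 2 to 4 exons, 1145 in those of 5 to 15 and 1481 in those of 16 or more. At T21 against T18, members with a short end were higher in 21 and lower in 28 of 103 (20.4% and 27.2%, other eligible loci with one 17.9% and 15.2%), and those without in 22 and 19 of 96 (22.9% and 19.8%, others without one 24.4% and 19%). By the calls of the 2 steps, 25 members were lower at T20 and not called after it (12.6%, other eligible loci 6.15%) and 17 higher at T20 and not called after it (8.54%, others 10.4%). In the step from T20 to T21 only, 12 were higher (6.03%, others 3.36%) and 9 lower (4.52%, others 3.76%). In both steps 6 were higher (3.02%, others 2.86%) and 1 lower (0.503%, others 1.36%), and 2 were higher at T20 and lower again at T21 (1.01%, others 0.669%). No call was made in any comparison for 98 members (49.2%, other eligible loci 53.8%).

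**Figure D3:**
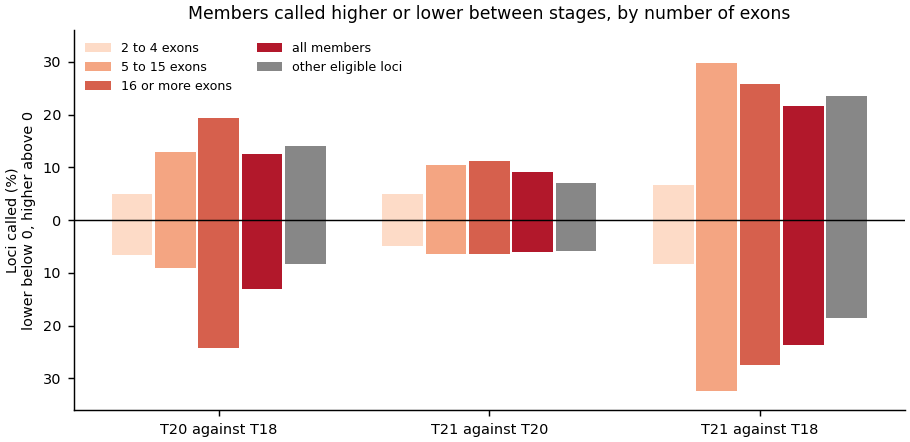
Percent of tested members called higher (above 0) or lower (below 0) in each comparison of stages, for 3 classes of exon number, all members and the other eligible loci. In members of 2 to 4 exons the shares run from 5% to 8.33%.

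The counts depend on the libraries and on which transcripts set the span. The counts over all loci tested moved as well. Without T20 replicate 1, 44 members were lower at T20 against T18 (22.0%, all loci 10.0%) and 31 higher at T21 against T20 (15.5%, all loci 7.34%). Without T21 replicate 1 the latter count was 10 (5.03%, all loci 3.00%), and without T21 replicate 3 it was 11 (5.64%, all loci 3.18%). The 12 lower members at T21 against T20 became 4 without T21 replicate 1 or T21 replicate 2 (2.01% each, all loci 1.84% and 2.17%), 6 without T21 replicate 3 (3.08%, all loci 2.51%), 5 without T18 replicate 2 (2.55%, all loci 3.11%) and 7 without T18 replicate 3 (3.57%, all loci 3.85%). Upper quartile scaling lowered the median log2 fold change of all loci to -0.11 at T20 against T18 and to -0.18 at T21 against T18, and with it the members split 18 higher and 38 lower, and 39 higher and 64 lower (all loci 9.002% and 10.2%, and 16.0% and 20.8%). When loci were ranked again without transcripts that hold an intron of at least 100 kb, only 50 of the members were among the 200 longest. Of that set 71 (35.5%) were higher and 35 (17.5%) lower at T21 than at T18, beside 18.9% and 14.7% of all loci tested. Among the eligible loci outside the members the shares were 23.5% and 18.5%. This ranking was added after the data were seen.

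The largest called rise from T18 to T21 was in Adora2a (XLOC_014865), named for an adenosine receptor that couples to G proteins. It had 42.5, 49.6 and 49.2 normalised counts at T18, 377 and 529 at T20 and 1747, 1727 and 1747 at T21. The stages did not overlap, and the log2 fold change was 3.23 ± 0.16 (SE) at T20 against T18 and 5.17 ± 0.15 at T21 against T18 (adjusted p = 6.1e-10, edgeR). Here and below the SE was derived from the test, as the absolute log2 fold change divided by the square root of its F statistic. The locus had at most 2 exons per transcript and 10372 exonic bases, and its longest intron of 230568 bases lay behind a 5′ exon of 33 bases. SULF1/Sulf2 (XLOC_002073), named for extracellular sulphatases that trim heparan sulphate, rose from 202, 180 and 135 at T18 through 1057 and 752 at T20 to 2901, 3517 and 3009 at T21. That is 4.20 ± 0.17 on the log2 scale (adjusted p = 9.5e-09, edgeR), without overlap between stages, in a locus of 20 exons with no short end.

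KCNA4 (XLOC_046336), a voltage-gated potassium channel, was low until T21, with 13.7, 9.91 and 22.98 normalised counts at T18, 35.9 and 22.3 at T20 and 156, 150 and 106 at T21 (log2 fold change 3.02 ± 0.38 at T21 against T18, adjusted p = 4.7e-05, edgeR). T18 and T20 overlapped. PPM1K/TSPAN15 (XLOC_040250) stood at 48.7, 17.3 and 25.7 at T18, 141 and 83.8 at T20 and 173, 155 and 125 at T21, a rise of 1.92 ± 0.40 by T20 (adjusted p = 0.0051, edgeR).

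The locus sax-3 (XLOC_050005), named after the Caenorhabditis elegans receptor for Slit, was almost silent before T21. It had 0, 0 and 1.62 normalised counts at T18, 0 and 1.86 at T20 and 21.4, 26.01 and 34.8 at T21. The locus reached the mean of at least 10 required of members only through its T21 libraries. Its rise at T21 is therefore in part set by the choice of members and is given as a description. Its 122 counts at T21 against 1 at T20 gave a ratio of 38.0 per normalised library (95% exact interval 6.70 to 1514, counting error only). The rise against T18 was called (adjusted p = 7.9e-04, edgeR), and that against T20 (adjusted p = 0.027) was lost without T20 replicate 1 or any 1 of the 3 T21 replicates (adjusted p from 0.061 to 0.12).

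The largest fall by T20 was in Plxna1/PLXNA2/WNT-5A (XLOC_024088), a locus over annotated plexin A genes, receptors for semaphorins, and a Wnt ligand gene. It had 1860, 2459 and 3149 normalised counts at T18, 197 and 205 at T20 and 148, 190 and 195 at T21. T18 lay far above both later stages, which differed little (log2 fold change -3.64 ± 0.24 at T20 against T18, adjusted p = 2.6e-06, and -0.16 ± 0.23 at T21 against T20, adjusted p = 0.73, edgeR). Over the whole course it had the largest fall among named members (-3.81 ± 0.20, adjusted p = 1.1e-07, edgeR). A shorter Plxna1 locus inside its span on the same strand (XLOC_024089) had 1.25, 0 and 0.54 normalised counts at T18 and 11.7, 6.12 and 6.66 at T21, and the counts of the member cannot be divided between its genes. The largest fall over the whole course among all members was in XLOC_036907 (no name), from 31.2, 85.9 and 51.4 at T18 to 3.89, 0 and 3.33 at T21 (-4.36 ± 0.63, adjusted p = 1.4e-04, edgeR). After Plxna1/PLXNA2/WNT-5A, the next named member was Rnf220 (XLOC_024811), a ubiquitin ligase gene, with 413, 425 and 622 at T18, 284 and 85.6 at T20 and 97.3, 55.1 and 86.6 at T21 (-2.63 ± 0.40, adjusted p = 6.4e-04, edgeR). The 2 T20 libraries were far apart, and 1 of them reached the T21 range.

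NAV2/nav3 (XLOC_016628), named for neuron navigators, which act on microtubules at the cell edge, fell in both steps. It had 7637, 7927 and 7981 at T18, 4840 and 3525 at T20 and 2560, 2194 and 2512 at T21 (-1.71 ± 0.11 over the course, adjusted p = 1.9e-07, edgeR). COL22A1 (XLOC_019836), a fibril-associated collagen, dropped by T20 and then stayed, from 28786, 33010 and 38246 at T18 to 9830 and 15215 at T20 and 11384, 10958 and 11124 at T21 (-1.42 ± 0.18 by T20, adjusted p = 3.5e-04, edgeR). This locus had up to 3 exons and 10277 exonic bases, shared 233781 bases of its span with a member on the other strand (XLOC_019652), and ended its longest intron in a 3′ exon of 10 bases. A second, 20453-base locus of the same name inside its span (XLOC_019837) rose by 1.16 from T18 to T21 (adjusted p = 0.044). CASKIN1 (XLOC_035351), a synaptic scaffold gene, had 282, 235 and 277 at T18, 148 and 78.2 at T20 and 134, 119 and 117 at T21 (-1.22 ± 0.28 by T20, adjusted p = 0.0082, edgeR).

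**Figure D4:**
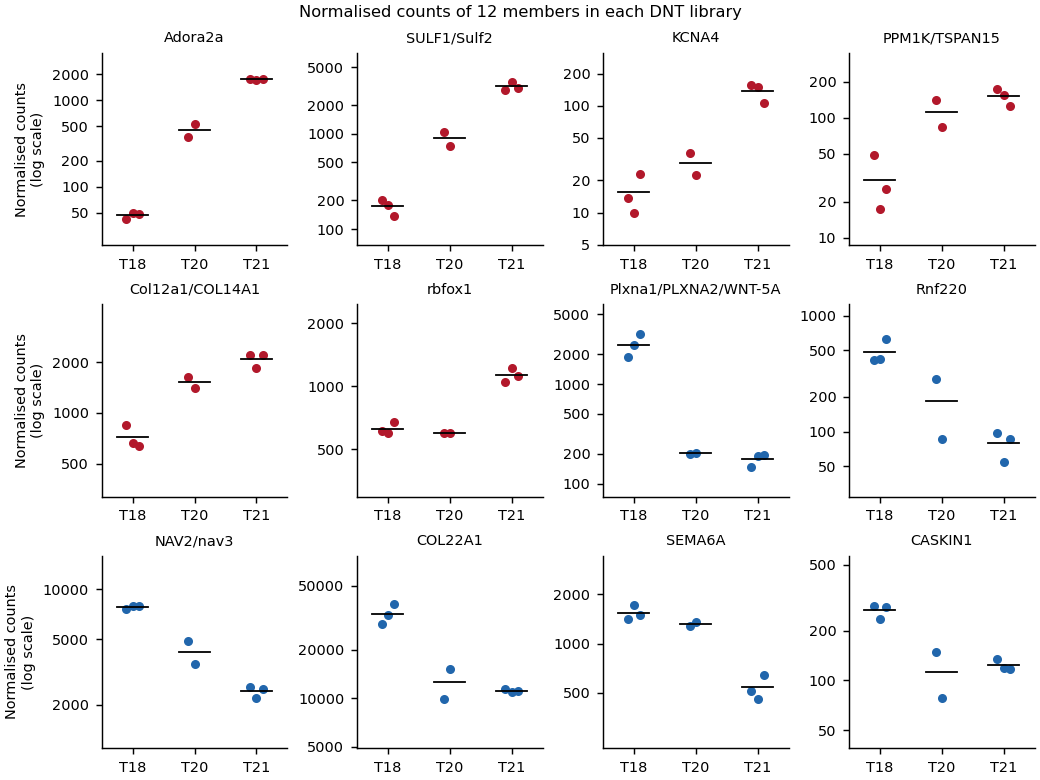
Normalised counts (log axis) of 12 named members in each DNT library (points) with the mean of each stage (line). The rising members (red) include Adora2a, from 42.5 to 49.6 at T18 to between 1727 and 1747 at T21, and the falling ones (blue) include Plxna1/PLXNA2/WNT-5A, with T18 between 1860 and 3149 and T21 between 148 and 195.

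The genes with the largest change in the step from T20 to T21 were partly others. Grik1/GRIK2/PDE10A, a locus over glutamate receptor genes and a phosphodiesterase gene, had 16.4 and 3.72 at T20 and 56.4, 49.0 and 69.6 at T21 (2.47 ± 0.66, adjusted p = 0.033, edgeR), a call that was lost without T20 replicate 2 or any 1 of the T21 replicates (adjusted p from 0.070 to 0.11). SEMA6A (XLOC_048244), a membrane semaphorin, had 1420, 1716 and 1499 at T18 and somewhat lower values of 1275 and 1346 at T20. It fell to 516, 462 and 646 at T21 (-1.27 ± 0.15 against T20, adjusted p = 2.2e-04, edgeR). A second SEMA6A locus lay inside its span on the same strand and also fell (XLOC_048245, -1.57 at T21 against T18, adjusted p = 1.7e-04). The locus dbr1 (XLOC_045089), named for the enzyme that opens intron lariats, fell from 2519 and 2923 at T20 to 2105, 1772 and 2035 at T21 (-0.47 ± 0.10, adjusted p = 0.011, edgeR), a call lost without T21 replicate 2 (adjusted p = 0.054). C12orf10/lrrc3b/Myg1 peaked at T20, with 1580, 1617 and 1542 at T18, 1972 and 2601 at T20 and 1730, 1703 and 1578 at T21, and its fall after T20 (-0.46 ± 0.11, adjusted p = 0.019) was lost without T20 replicate 2 or any 1 T21 replicate (adjusted p from 0.065 to 0.15).

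By known roles, set by their names, 28 of the 60 named members fell into 7 gene groups. Since having a name depends on the stage course, the counts in these groups say nothing of how often such genes change. Over the whole series, the same names matched 156 tested loci of adhesion and guidance (100 higher and 39 lower at T21 than at T18), 168 of matrix (114 and 30), 194 of cytoskeleton and scaffolds (125 and 37), 211 of channels, transporters and synapse (125 and 52), 211 of receptors and signalling (123 and 56), 230 of transcription and chromatin (101 and 83) and 50 of RNA binding (19 and 19). All 5 members placed in the adhesion and guidance group were called at T21 against T18, 3 higher and 2 lower. The locus sax-3, named after a receptor for Slit and also called higher, was not placed in it. SLIT1/Slit2/SLIT3 (XLOC_020444), a locus of secreted guidance ligands, rose from 953, 842 and 1113 to 2060, 2007 and 2213 (1.09 ± 0.12, adjusted p = 1.3e-05, edgeR), and unc5b/UNC5C (XLOC_014986), a netrin receptor locus, from 1590, 1164 and 1284 to 2053, 2113 and 1941 (0.58 ± 0.12, adjusted p = 0.0026). SEMA6A and Plxna1/PLXNA2/WNT-5A were the 2 that fell, and the second also holds a Wnt ligand gene.

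All 5 matrix members were called too, 2 higher and 3 lower. Col12a1/COL14A1 (XLOC_001809), a 57-exon locus of collagens associated with fibrils, rose from 848, 660 and 636 at T18 through 1644 and 1404 to 2202, 1845 and 2197 at T21 (1.53 ± 0.12, adjusted p = 1.1e-06, edgeR). COL15A1/ITGB1/Kunitz-type (XLOC_005235), over a basement membrane collagen and integrin beta 1, rose from 233.5, 177 and 181 to 599, 581 and 644 (1.62 ± 0.17, adjusted p = 7.9e-06). COL22A1, Abcb1b/Fbln5 and Cel/DDX31/MATN1 (XLOC_049323, -0.82 ± 0.11, adjusted p = 9.3e-05) fell.

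Of 5 cytoskeleton and scaffold members 1 rose, 3 fell and 1 was not called. DIAPH1 (XLOC_027275), a formin that builds actin filaments, rose from 1456, 1369 and 1287 to 2368, 2298 and 2178 (0.72 ± 0.08, adjusted p = 1.7e-05, edgeR), and GAS8-AS1/SHROOM2 (XLOC_023169), over an actin-binding protein gene, fell from 6255, 5665 and 5959 to 3541, 3093 and 4000 (-0.76 ± 0.10, adjusted p = 5.7e-05). NAV2/nav3 and MACF1/PLEC were the others that fell, and the MACF1/PLEC call was lost without any 1 T18 or T21 replicate (adjusted p from 0.058 to 0.10). DMD was not called (0.78 ± 0.33, adjusted p = 0.11), with 320, 294 and 361 at T18, 465 and 147 at T20 and 663, 465 and 577 at T21; without either T20 library it was (adjusted p = 2.2e-04 and 1.5e-04).

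Of 7 members in the channel, transporter and synapse group 5 rose and none fell. The group took genes by name, and 1 of the 5, DPP4/RBMS1, is named for a dipeptidyl peptidase and an RNA-binding protein and for no channel. Others that rose were KCNA4 and PPFIA1/PPFIA2 (XLOC_001935), a liprin alpha locus that rose by 0.47 ± 0.11 on the log2 scale (adjusted p = 0.0050, edgeR). The absence of falls holds only for this list. CASKIN1, a synaptic scaffold gene, was in no group and fell (-1.12 at T21 against T18, adjusted p = 0.0023, edgeR). Abcb1b/Fbln5, which bears a transporter name and also fell, was placed with matrix only. Of 7 receptor and signalling members 3 rose and 2 fell; the call of 1 that rose, Plch2 (XLOC_042708, 0.96 ± 0.30, adjusted p = 0.023), was lost without any 1 T18 replicate or T21 replicate 3 (adjusted p from 0.052 to 0.15). Bmpr1b (XLOC_015054), a type I receptor for BMP ligands, rose from 1459, 1559 and 1430 to 2251, 2186 and 2110 (0.54 ± 0.08, adjusted p = 1.5e-04), and axin1/DDB_G0271670 (XLOC_035147), over a scaffold of the beta-catenin destruction complex, fell from 7543, 7243 and 7276 to 5240, 4724 and 4761 (-0.60 ± 0.08, adjusted p = 8.3e-05). Of 3 RNA-binding members rbfox1 was level at T18 (611, 597 and 673) and T20 (596 at both) and rose to 1043, 1227 and 1118 at T21 (0.91 ± 0.13 against T20, adjusted p = 8.1e-04, edgeR), DPP4/RBMS1 (XLOC_028821) rose by 0.53 ± 0.11 from T18 to T21 (adjusted p = 0.0027), and Prkd1/Prkd2/Prkd3/Srsf5 (XLOC_026444) was not called in that comparison.

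On the scale of normalised counts per kb of exon, members had a median level of 104, close to the 84.4 of the other eligible loci. The highest was XLOC_043198 (no name; 24392 per kb), with 514 exonic bases in all and a 271506-base intron behind a 5′ exon of 9 bases. Among named members the highest were alphaTub84B/MNX1 (7057 per kb), actb/FBXL18/SMIM11 (XLOC_021413, 3763 per kb), Prkd1/Prkd2/Prkd3/Srsf5 (2624 per kb), COL22A1 (1928.5 per kb) and C12orf10/lrrc3b/Myg1 (733 per kb). The locus named for beta actin alone held 10.8% of all member counts, and 10 members held 40.3%. It rose from 33119, 30568 and 31397 at T18 to 44910 and 73371 at T20 and 57949, 59074 and 55481 at T21 (0.84 ± 0.14 at T21 against T18, adjusted p = 6.9e-04, edgeR), and its 204974-base intron lay behind a 5′ exon of 9 bases. MNX1 encodes a motor neuron homeobox factor and alphaTub84B is a Drosophila name for an alpha tubulin; the counts of this locus cannot be divided between them.

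ATAC-seq peaks mark stretches of open chromatin, which include promoters and enhancers. The sea lamprey list held 236315 peaks of a median width of 341 bases, and the brook lamprey list 314377 of 319 bases. A peak was called intronic when its centre lay within the span of the member and off all its exons, so that its edge could touch an exon. Members held 11456 sea lamprey and 16364 brook lamprey intronic peaks, each counted once, in 56.6 Mb of intron. That is 20.2 sea lamprey peaks per 100 kb (95% Poisson interval 19.9 to 20.6, counting error only) and 28.9 brook lamprey peaks per 100 kb (28.5 to 29.4). The other eligible loci had 20.2 (20.1 to 20.4) and 28.3 (28.1 to 28.4). The difference over loci was not tested. The brook lamprey list is larger and its libraries were 10 against 9, so the 2 rates are not a measure of openness between species.

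Of the members' intronic sea lamprey peaks, 39.5% (38.6 to 40.4) overlapped a brook lamprey peak by at least 1 base, beside 39.2% in the other eligible loci. Of the brook lamprey peaks 27.7% (27.0 to 28.4) overlapped a sea lamprey peak, beside 27.9%. Both shares are set by lists of unequal size. Peaks within 1 kb of a transcript start of any stranded locus made up 8.62% of the members' sea lamprey intronic peaks and 6.21% of the brook lamprey ones, against 15.5% and 11.2% in the other eligible loci. In the other eligible loci with a span of at least 100 kb the shares were 9.82% and 7.51%, nearer to those of the members. Members higher at T21 than at T18, lower or not called had like rates of sea lamprey peaks (20.2 per 100 kb in each) and of brook lamprey peaks (29.2, 28.8 and 28.8). In the longest introns the sea lamprey rate was 20.7 per 100 kb (20.3 to 21.2) and in the members' other introns 18.9 (18.2 to 19.6), and the brook lamprey rates were 29.1 (28.6 to 29.6) and 28.4 (27.6 to 29.3). Other eligible loci with a span of at least 100 kb had sea lamprey rates of 21.4 (21.1 to 21.7) and 17.8 (17.4 to 18.3). Their brook lamprey rates were 29.4 (29.1 to 29.7) and 27.2 (26.7 to 27.7). Members of 16 or more exons had 18.9 sea lamprey peaks per 100 kb (18.3 to 19.6), against 20.7 in those of 2 to 4 and 20.9 in those of 5 to 15, and 35.7% of their peaks overlapped in brook lamprey, against 39.7% and 41.7%.

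Single members held 10 to 124 sea lamprey peaks (median 56.5) and 16 to 179 brook lamprey peaks (median 81). The densities of the 2 species went together across the 200 members with a Spearman rho of 0.34, over introns on the same assembly. The most sea lamprey peaks were in XLOC_045221 (no name; 124, with 131 in brook lamprey), and among named members in C12orf10/lrrc3b/Myg1 (107 and 177), in DIAPH1 (85 and 123), actb/FBXL18/SMIM11 (85 and 111) and PPM1K/TSPAN15 (85 and 114). Low numbers among named members were those of PPFIA1/PPFIA2 (37 and 74) and unc5b/UNC5C (41 and 65), with GCC1/Slmap (XLOC_012720) and Apaf1/ARMC4/Tmc2 (XLOC_028737) also at 41 sea lamprey peaks.

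**Figure D5:**
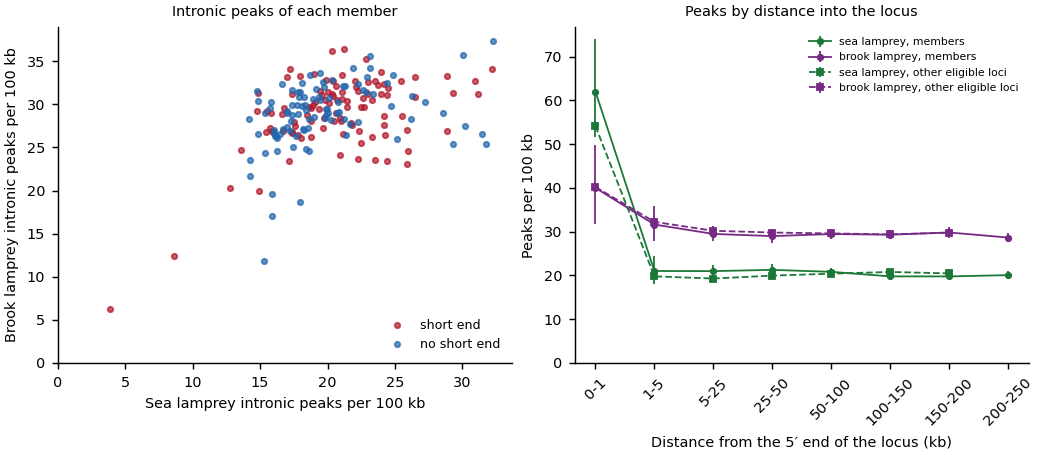
Left, intronic peaks per 100 kb of intron of each member in sea lamprey (x axis) and brook lamprey (y axis), by whether the member has a short end, with medians of 19.9 and 29.4 over the members. Right, peaks per 100 kb by distance from the 5′ end of the locus, with 95% Poisson intervals, for members and other eligible loci; rates are highest in the first kb and level beyond it.

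Peaks were densest at the 5′ end. In the first kb from it the members had 62.0 sea lamprey peak centres per 100 kb (51.6 to 73.9), and between 5 and 250 kb into the locus from 19.8 to 21.3; the brook lamprey rates were 40.0 (31.7 to 49.8) and from 28.6 to 29.8. The 5′ end had a sea lamprey peak within 1 kb in 158 of 200 members (79%, 72.8 to 84.1; other eligible loci 73.0%). By the kind of end it was 84 of 97 members without a short end (86.6%, 78.4 to 92.0) and 50 of 60 with a short end at 3′ (83.3%, 72.0 to 90.7) and 24 of 43 with a short end at 5′ (55.8%, 41.1 to 69.6). The share was also lower in other eligible loci with a short end at 5′ (65.3%) than in those without a short end (73.5%). In the 43 members, the first kb held 25.6 sea lamprey peak centres per 100 kb (12.8 to 45.8, 11 peaks), close to the rate of the rest of the locus. At the inner edge of their longest intron, where the larger part of the exons begins, 31 of 43 (72.1%, 57.3 to 83.3) had a peak within 1 kb in each species. The share was 53.6% (43.7 to 63.2) in each species in members without a short end. With a short end at 3′ it was 46.7% of 60 in sea lamprey and 48.3% in brook lamprey. Outside the loci with a short end at 5′, that edge can be where the larger part of the exons ends. In other eligible loci with a short end at 5′ the shares were 54.3% in sea lamprey and 60.8% in brook lamprey, and in all other eligible loci 45.2% and 64.0%. The intervals of the 43 and of the members without a short end overlap, and the brook lamprey shares of the other loci lie within that of the 43. In brook lamprey the share with a peak at the 5′ end was 28 of 43 (65.1%) with a short end at 5′, 33 of 60 (55.0%) with one at 3′ and 69 of 97 (71.1%) without one, with overlapping intervals (50.2 to 77.6, 42.5 to 66.9 and 61.4 to 79.2).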

How the data were processed

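The authors trimmed reads with Sickle, mapped RNA-seq with STAR 2.4.2 to the sea lamprey germline genome assembly, assembled transcripts with Cufflinks from DNT, T20 head and whole embryo libraries, joined them with Cuffmerge, and deposited fragment counts per locus from featureCounts 1.4.6-p4 (strand-specific, multi-mapping reads included) and counts divided by DESeq2 1.8.2 size factors, a signal here called normalised counts. In the deposited count table the header has 1 field more than the lines; the 8 libraries were read by field, and the ratio of count to normalised count was constant within each library. ATAC-seq reads of both species were mapped with Bowtie2 and, per the authors, replicates were merged per stage, down-sampled, called with MACS2 and their peaks merged into 1 list per species; the deposited lists hold positions only. Of the per-sample columns, 0 were left unused. Gene names were read from the study's supplementary lists of changed or clustered loci, of which no values were used. A name read as a date was left out.

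Counts were tested with edgeR 4.0.16 (R 4.3.3; TMM, filterByExpr, robust quasi-likelihood fit on stage over 8 libraries, Benjamini-Hochberg over all loci); alternatives are given in the closing section. The fit was tested on simulated data. Structure, peaks and figures were computed with Python 3.11.15, pandas 2.3.3, scipy 1.17.1 and matplotlib 3.10.9. Named genes were, among named members, the 4 largest called changes without overlap in each direction and comparison, the 5 largest spans, longest introns, peak counts and levels per kb, the 3 lowest peak counts, and up to 4 members per gene group; an unnamed locus is given where it leads an order, and 3 named members that the rule takes are not reported here. SLIT1/Slit2/SLIT3, Cel/DDX31/MATN1, GCC1/Slmap, Apaf1/ARMC4/Tmc2 and the unnamed loci that lead no order fall outside it and were chosen after their values were seen. Same-numbered replicates did not deviate together, so numbers pair nothing. The members, gene groups and marker lists were chosen with earlier results of these data known. Intervals and the ratio at 1 count cover counting error only.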

Additional observations from a re-analysis of the deposited data

How the results depend on the processing

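Percentages of members called are those of the tested members. Leaving out each library in turn gave, at T20 against T18, 8.67% to 14.5% higher and 9.18% to 22% lower, at T21 against T20, 5.03% to 15.5% higher and 2.01% to 8.5% lower, and at T21 against T18, 18.9% to 25.5% higher and 19.1% to 28.5% lower; with 1 T20 library left, it is assumed to vary like the other stages. Replicate numbers did not pair the libraries, and a fit with the replicate block gave 3.02% lower at T21 against T20 in place of 6.03%, ended 4 of the named calls and moved no other percentage by over 1.5 times. That percentage was 9.55% with upper quartile scaling, 2.05% with the libraries of the 2 stages only and 3.0% when ranked without long-intron transcripts. Over all loci tested it was 2.88% with the replicate block, 5.84% with upper quartile scaling and 2.90% with the libraries of the 2 stages only. Without a filter on low counts 15.0% were higher at T21 against T20, beside 3.35% of the 58793 loci then tested. Those loci had no lower limit on their mean, unlike the members. With a log2 fold change of at least 1, 4.52% were higher and 3.52% lower at T20 against T18, 4.02% and 1.01% at T21 against T20, and 10.1% and 5.03% at T21 against T18. No share over all loci is given at this threshold, so these values describe the members only. Without members of 2 or more names, 6.21% were higher at T20 against T18 and 13.7% at T21 against T18. Having a name depends in part on the stage course, so this choice itself removes called members. At T21 against T18, 55% of the members with a name were higher and 7.19% of those without one. The drop therefore says nothing of loci that join several genes. Ranked without long-intron transcripts, the percentages higher were 20.0%, 18.5% and 35.5% in the 3 comparisons, beside 10.8%, 5.4% and 18.9% of all loci tested. Among the eligible loci outside the members they were 14%, 7.04% and 23.5%. The set ranked without long-intron transcripts was added after the data were seen. All other alternatives kept these percentages within 1.5 times. The longest intron took over 50% of the span in 65.5% with the gaps of the union of exons, in 69.0% of the 100 longest, in 59.8% of the members without a short end and in 9.0% of the set ranked without long-intron transcripts. Sea lamprey intronic peaks per 100 kb were 18.5 off the exons of any locus, 11.3 at 300 bases or wider, 17.6 without peaks within 2 kb of a start, 19.7 in the 100 longest and 19.7 without a short end; brook lamprey values were 26.1, 15.4 and 25.9 for the first 3. In the other eligible loci those 3 filters gave 17.0, 11.5 and 15.4, and 22.7, 15.3 and 22.8. The filters took out peaks but left the intron length in the divisor unchanged. Peaks within 1 kb of a start made up 8.62% of the members' sea lamprey intronic peaks and 15.5% of those in the other eligible loci. The filtered rates are therefore no comparison of peak density between the 2 groups. The overlap of sea lamprey peaks was 22.5% with a reciprocal overlap of 50%, 38.5% off exons, 45.6% at 300 bases or wider, 38.4% in the 100 longest and 37.2% without a short end. For 51 named fold changes under 714 alternatives none turned, 46 lost the call and 7 gained it; 39 stayed on the same side of the threshold throughout, called or not. The causes were not tested. A mean under 20 normalised counts was found in 19 members, among them sax-3, which was called, and T20 has only 2 libraries.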
